A study of Mus musculus with 12 samples.

Results

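Replication-dependent histone cluster genes encode the core and linker histones that package newly copied DNA. The set described here is every row of the deposited count table whose symbol has the form Hist1h to Hist4h, and the rule found 9 of 36255 genes. They are 4 H2A genes (Hist1h2al, Hist1h2an, Hist1h2ao and Hist1h2ap), 3 H2B genes (Hist1h2bp, Hist1h2bq and Hist1h2br) and 2 H4 genes (Hist1h4m and Hist1h4n). No H1 or H3 gene carries such a symbol in the table. A further 61 genes of the same class are in the table under newer symbols (H2ac, H2bc, H3c, H4c, H1f and the like), found through RefSeq synonyms, so the 9 genes are a small part of the 70 and not a sample of the class.

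Poly(A) RNA of mouse embryos was sequenced to compare embryos with and without Skp1a, which encodes an adaptor of the SCF ubiquitin ligases. The 11 libraries analysed fall into 6 labelled groups. At 9.5 days post coitum (dpc) there are Skp1aKO, Skp1acont, wt and wt PI with 2 libraries each and Skp1acont PI with 1, and at 9.0 dpc there is wt with 2. The other Skp1acont PI library of the 12 labelled was not analysed here. The labels give no allele, strain, Cre driver or meaning for "cont", "PI", "lot" and the "mb" of every title, name the tissue as embryo without saying which part while the growth protocol names ES and embryoid body medium, and leave unsaid whether lots are separate embryos. A p-value here thus reflects library-to-library spread that could be technical.

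The libraries of a group are called lot 1 and lot 2, as in the titles. Total counts ran from 2320599 to 11607085, so that 1 library's limit for a count of 0 (3 counts) lay between 0.258 and 1.29 CPM, the count scaled to the library's size. Skp1a-labelled libraries stood apart from wt ones. Mitochondrial genes held 5.98% to 15.8% of their counts, against 2.44% to 4.01% in wt. Counts over 2000 chemoreceptor genes, taken as a background since embryos have no known use for them, averaged 1.96 to 5.73 CPM per kb of exon, against 0.319 to 0.654 in wt, and Skp1acont lot 2 had the highest value and the lowest total. Skp1a itself went against the labels: TMM-scaled CPM were 199 and 212 in the libraries labelled Skp1aKO, 303 and 104 in those labelled Skp1acont, and 930 and 1136 in wt at 9.5 dpc. Its log2 fold change was 0.01 ± 0.51 (SE) for Skp1aKO against Skp1acont (edgeR quasi-likelihood test, adjusted p = 1), and directions drawn from the label Skp1aKO carry that limit.

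Histone cluster mRNAs are unlike other mRNAs at their 3′ end. They are cut just after a conserved stem-loop, which the protein Slbp binds, and normally carry no poly(A) tail. They accumulate in S phase and decay when DNA synthesis stops. Some cluster genes can also give spliced or read-through transcripts that end at an ordinary poly(A) signal, and these are the kind that poly(A) selection retains. The genes lie in dense clusters, often as head-to-head H2A and H2B pairs that share the stretch between their starts.

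The stem-loop is shown for the members whose annotated transcripts contain it, since it is the element that ordinarily replaces the tail. GENCODE M21 transcripts of Hist1h2ao, Hist1h2ap, Hist1h2bp, Hist1h4m and Hist1h4n hold it. In the lines below the capitals mark the 16 bases of stem, loop and stem, written as DNA 5′ to 3′, with flanking bases in lower case.
Hist1h2ap: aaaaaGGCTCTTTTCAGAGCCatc
Hist1h2ao: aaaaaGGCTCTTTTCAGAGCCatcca
Hist1h2bp: acaaaGGCTCTTTTCAGAGCCaccca
Hist1h4m: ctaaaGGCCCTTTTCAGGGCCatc
Hist1h4n: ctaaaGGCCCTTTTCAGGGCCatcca
The annotated transcript ended 3 bases after the stem-loop in Hist1h2ap and Hist1h4m, and 31 bases after it in Hist1h2ao and Hist1h4n. The H2A and H2B members shared 1 form of the element and the H4 members another.

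The 3 H2B members also have an annotated transcript with the poly(A) signal AATAAA close to its end. These ends are shown because an ordinary poly(A) signal is annotated there. The annotation does not say which transcripts carried a tail in these libraries. The capitals mark the signal.
Hist1h2bp: AATAAAggtttcaatctatccca
Hist1h2bq: AATAAAtttgtttcttctcctgcctcc
Hist1h2br: AATAAAtttgtttcttctcctgcctcc
The signal ended 17 bases before the transcript's end in Hist1h2bp and 21 bases before it in the others. The Hist1h2bq and Hist1h2br annotations have up to 3 exons and span 3.59 kb and 3.79 kb, against 0.48 kb for Hist1h2ap. No member other than these H2B genes had the signal near an annotated end.

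All members but Hist1h2al lie within 50.7 kb of chromosome 13 (GRCm38). Hist1h2an (chr13:21786826-21787218, minus strand) faces Hist1h2bp (chr13:21787461-21789213, plus strand). Hist1h2bq (chr13:21806612-21810197, minus) faces Hist1h2ao (chr13:21810465-21810944, plus), with Hist1h4m (chr13:21811746-21812147, plus) beyond it. Hist1h4n (chr13:21831767-21832196, minus) and Hist1h2ap (chr13:21833026-21833507, minus) lie in the opposite order, and Hist1h2ap faces Hist1h2br (chr13:21833743-21837530, plus). Hist1h2al is annotated as a processed pseudogene far from the others (chr13:51202727-51203065, minus).

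**Figure D1:**
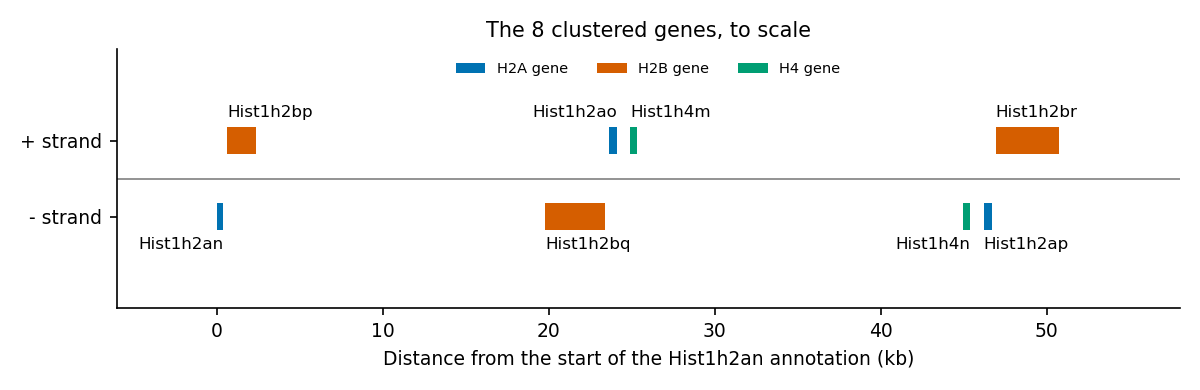
Map of the 8 clustered genes drawn to scale, with distance in kb from the start of the Hist1h2an annotation on the horizontal axis and strand on the vertical axis. Bars span each annotated gene and colours give the histone type. The H2B, H2A and H4 genes near 20 to 25 kb are repeated in mirror order near 45 to 50.7 kb.

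The genes of the mirrored blocks are copies of each other. The coding sequences of Hist1h2ao and Hist1h2ap did not differ over 390 bases, nor did those of Hist1h2bq and Hist1h2br over 378 bases or of Hist1h4m and Hist1h4n over 309 bases. Hist1h2an differed from Hist1h2ap at 5 bases (98.7% identity), and Hist1h2bp from Hist1h2br at 6 (98.4%). The nearest gene under a newer symbol was 99.2% identical to Hist1h2ap (H2ac7), 99.5% to Hist1h2br (H2bc11) and 96.8% to Hist1h4n (H4c8).

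The 235 bases between the facing starts of Hist1h2ap and Hist1h2br recurred without a difference inside the 267 bases between those of Hist1h2ao and Hist1h2bq. They are printed because 1 copy lies beside the most abundant member and the other beside a gene with almost no counts. The sequences are from RefSeq (GRCm38.p6), plus strand, with CCAAT boxes of either strand (CCAAT or ATTGG) in capitals. The Hist1h2an and Hist1h2bp stretch is shown for contrast, and it was 70.9% identical to the other over 206 aligned columns.
Hist1h2ap/Hist1h2br, chr13:21833508-21833742: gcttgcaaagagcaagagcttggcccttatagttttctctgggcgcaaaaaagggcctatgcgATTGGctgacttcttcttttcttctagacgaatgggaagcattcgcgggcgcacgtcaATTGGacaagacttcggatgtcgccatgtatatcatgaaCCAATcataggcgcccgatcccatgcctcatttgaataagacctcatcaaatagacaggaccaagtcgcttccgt
Hist1h2an/Hist1h2bp, chr13:21787219-21787460: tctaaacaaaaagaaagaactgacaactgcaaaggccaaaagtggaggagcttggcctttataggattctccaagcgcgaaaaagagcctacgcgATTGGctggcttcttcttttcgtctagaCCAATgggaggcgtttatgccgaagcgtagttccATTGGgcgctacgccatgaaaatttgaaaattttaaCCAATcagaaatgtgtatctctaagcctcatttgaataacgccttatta
The first holds 3 CCAAT boxes and the second 4. In the 250 bases upstream of the start, CCAAT was found on either strand in 6 of the 8 member promoters in the RefSeq table, the H2A and H2B ones, and in 33.8% of all 32851. Facing H2A and H2B genes share their stretch, and 235 bases recur between pairs, so the member promoters are not independent. No enrichment was tested. TATAAA was found in 4 of 8 (Hist1h2an, Hist1h2bp, Hist1h4m and Hist1h4n) and in 12.4% of all. The octamer ATTTGCAT, the factor site known from H2B promoters, was in 0 of 8 and in 1.6% of all. Absence says only that these letters are not in that window.

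Because of these copies few reads can be placed with certainty. The share of 50-base words of a gene's exons that occur in no other annotated gene was 6.9% in Hist1h2ap, 6.5% in Hist1h2ao, 2.7% in Hist1h2bq, 11.3% in Hist1h2br, 10.2% in Hist1h4m and 14.4% in Hist1h4n. It was highest in Hist1h2bp, at 55.9%. How the authors counted reads with several matches is not given in the sources used here. The split of counts between copies is therefore uncertain.

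Hist1h2ap, which encodes a core histone H2A, held 3673 of the counts of the 9 genes, or 85.7%. Its counts were 267 and 111 in Skp1aKO lots 1 and 2, 516 and 158 in Skp1acont, 509 in Skp1acont PI, 318 and 441 in wt at 9.0 dpc, 202 and 502 in wt at 9.5 dpc, and 163 and 486 in wt PI. It was the only one of the 9 with more than 10 counts in every library. Its share of the 9 genes' counts ran from 73.5% (95% Wilson interval 66% to 79.9%) in Skp1aKO lot 2 to 94.5% (92.3% to 96.1%) in Skp1acont lot 1. Intervals cover counting error only.

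Hist1h2ap also led all H2A cluster genes of the table, older and newer symbols together. It held 55.5% of their counts in Skp1aKO lot 2, the lowest value, and 84.4% in wt at 9.0 dpc lot 1, the highest. Its twin Hist1h2ao, with the same coding sequence, the same stem-loop and those 235 upstream bases, had 0 and 4 counts in Skp1aKO, 0 and 11 in Skp1acont, 9 in Skp1acont PI, 3 and 0 in wt at 9.0 dpc and 0 in all 4 wt libraries at 9.5 dpc. Per kb of exon the mean level over the 11 libraries was 140 CPM for Hist1h2ap and 1.7 CPM for Hist1h2ao. Whether the gap lies in the RNA or in how reads of identical copies were assigned was not tested.

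As a share of the library total, Hist1h2ap was at 74.1 and 36.8 CPM in Skp1aKO, 123 and 68.1 in Skp1acont, 123 in Skp1acont PI, 79.3 and 38 in wt at 9.0 dpc, 59.5 and 54.5 in wt at 9.5 dpc, and 44.9 and 43.4 in wt PI. The lot 1 library was the higher one in each of the 5 groups with both lots. On the TMM scale, which corrects for the makeup of each library, the group means were 40.8 ± 23.1 (SD, n = 2) in Skp1aKO, 72.9 ± 35.6 in Skp1acont, 81.1 ± 40.8 in wt at 9.0 dpc, 71 ± 4.42 in wt at 9.5 dpc and 54.2 ± 2.78 in wt PI. The lone Skp1acont PI library was at 99.6, above each of these means. Among the 5 groups with both lots the order was wt at 9.0 dpc, Skp1acont, wt at 9.5 dpc, wt PI and Skp1aKO. The libraries of each neighbouring pair overlapped except those of wt at 9.5 dpc and wt PI.

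**Figure D2:**
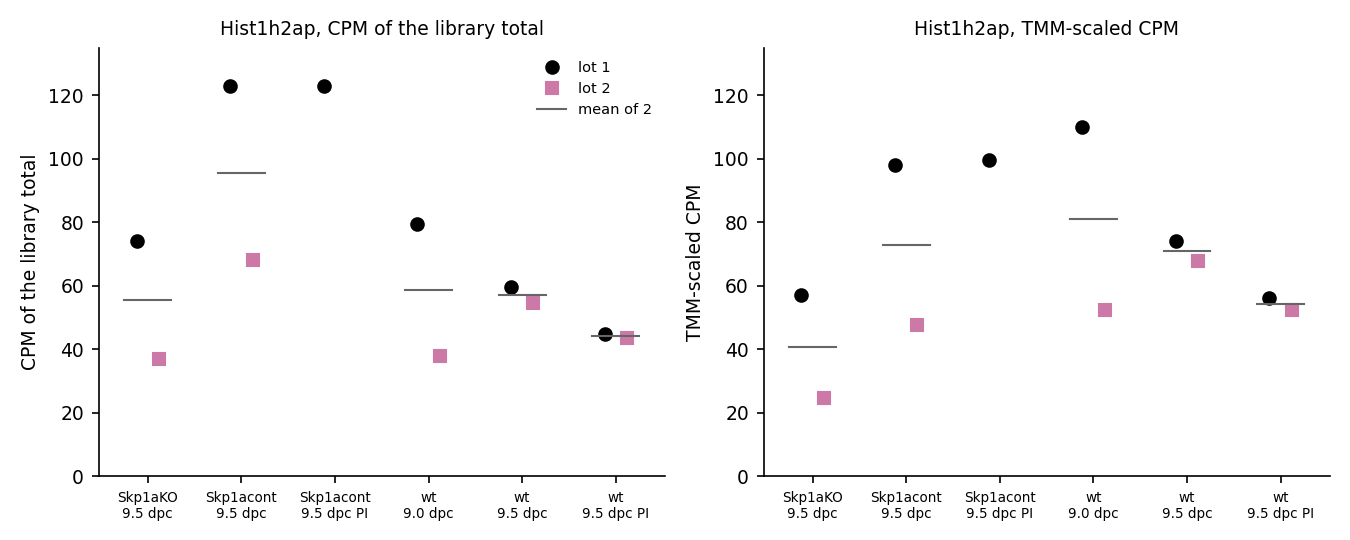
Hist1h2ap level in each of the 11 libraries by group, as CPM of the library total (left) and TMM-scaled CPM (right). Circles are lot 1, squares lot 2 and lines the mean of 2 libraries. Lot 1 lies above lot 2 in all 5 groups that have both, and the Skp1a-labelled groups stand lower on the right than on the left.

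The other 8 genes were counted sparsely. Hist1h4n, an H4 gene, had 189 counts in all, with 15 and 0 in Skp1aKO, 22 and 0 in Skp1acont, 25 in Skp1acont PI, 20 and 56 in wt at 9.0 dpc, 6 and 18 in wt at 9.5 dpc and 6 and 21 in wt PI. In both Skp1a groups with a pair of lots it was at 0 in lot 2. Its copy Hist1h4m, in turn, had 0 and 9 in Skp1aKO, 0 and 0 in Skp1acont, 0 in Skp1acont PI, 4 and 13 in wt at 9.0 dpc, 7 and 28 in wt at 9.5 dpc and 0 and 9 in wt PI. In Skp1aKO the pair thus traded places between lots, 1 copy at 0 where the other was counted.

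The H2B members, which encode the partner of H2A in the nucleosome, had intermediate counts. Hist1h2bp had 7 and 7 in Skp1aKO, 1 and 0 in Skp1acont, 14 in Skp1acont PI, 11 and 35 in wt at 9.0 dpc, 3 and 8 in wt at 9.5 dpc and 3 and 32 in wt PI. Hist1h2br had 7 and 10, 0 and 17, 2, 4 and 31, 7 and 19, and 3 and 16 in the same order. In CPM the lots of Skp1acont differed most, at 0 and 7.33. Hist1h2bq, its copy, had 10 and 9 in Skp1aKO, 7 and 0 in Skp1acont, 26 in Skp1acont PI, 7 and 0 in wt at 9.0 dpc, 0 and 0 in wt at 9.5 dpc and 5 and 7 in wt PI. Here too the copy at 0 changed between the lots of Skp1acont: Hist1h2br in lot 1 and Hist1h2bq in lot 2.

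Hist1h2an reached at most 4 counts and was at 0 in 8 of 11 libraries. Hist1h2al, the pseudogene, also reached at most 4 and was at 0 in 7. Both failed the filter on low counts, so 7 of the 9 genes were tested. Per kb of exon, mean levels were 6.88 CPM for Hist1h4n, 2.49 for Hist1h4m, 2.46 for Hist1h2bp, 0.95 for Hist1h2br, 0.788 for Hist1h2bq, 0.525 for Hist1h2al and 0.362 for Hist1h2an.

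**Figure D3:**
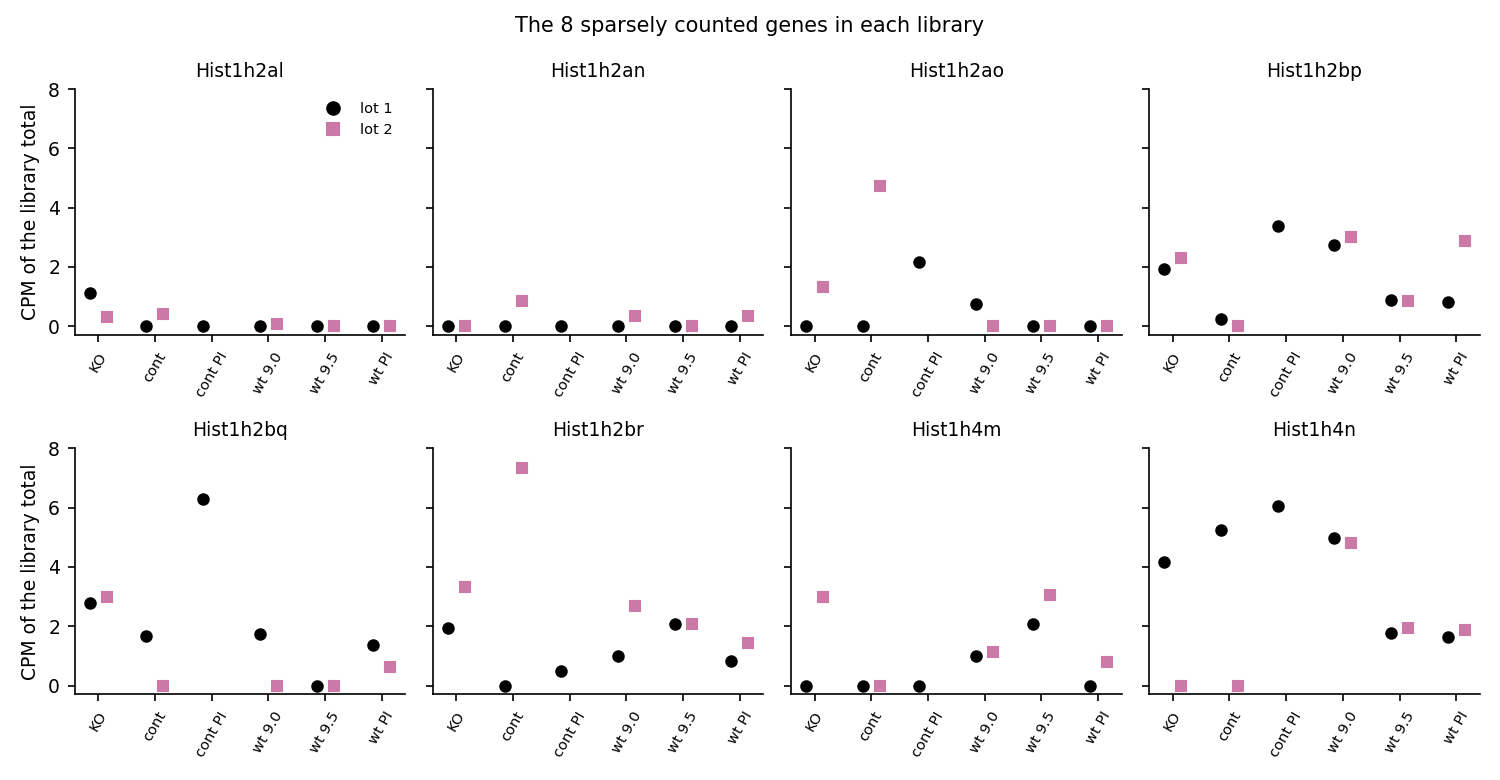
CPM of the library total for the 8 sparsely counted genes, 1 panel each, with circles for lot 1 and squares for lot 2 of each group. All points lie under 8 CPM, and each of the 8 genes has a Skp1a group with 1 lot at 0 and the other above it. Some genes show the same in a wt group.

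Summed over the 9 genes, the level was 86.1 and 50 CPM of the library total in Skp1aKO, 130 and 81.4 in Skp1acont, 142 in Skp1acont PI, 91.6 and 50.1 in wt at 9.0 dpc, 66.3 and 62.4 in wt at 9.5 dpc, and 49.5 and 51.4 in wt PI. The 9 genes made up 15% to 31.5% of the counts of all 70 histone cluster genes in the Skp1a-labelled libraries and 19.5% to 31.8% in the wt libraries, which overlap. The log2 ratio of summed CPM was -0.63 for Skp1aKO against Skp1acont, 0.08 for Skp1aKO against wt at 9.5 dpc and 0.72 for Skp1acont against it. On the TMM scale the ratios against wt were -0.69 and 0. Over all genes the median log2 fold change moved alike, from 0.236 with TMM to 1.04 with library totals for Skp1aKO and from 0.342 to 1.08 for Skp1acont. Less that median, the ratio was -0.96 with library totals and -0.93 with TMM for Skp1aKO, and -0.36 and -0.34 for Skp1acont, with no test. Without 1 library the ratio for Skp1aKO against Skp1acont ran from -1.08 (without Skp1aKO lot 1) to -0.26 (without Skp1acont lot 1).

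In bulk RNA, fewer cells of a type and less RNA per cell cannot be told apart, and this holds for every comparison that follows. Each gene was tested with edgeR's quasi-likelihood test over 18837 genes, with Benjamini-Hochberg adjustment and a call at an adjusted p under 0.05. A fitted fold change against a group with 0 counts depends on the prior count, so bounds against 3 counts over the group are given for those. These bounds do not cover the spread between libraries. With 2 libraries on each side, whether libraries overlapped is only a description of the values. The share of all genes without overlap is not given here.

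None of the 7 tested genes was called between Skp1aKO and Skp1acont by edgeR or DESeq2, and 0% of all genes were called by edgeR. Hist1h2ap gave a log2 fold change of -0.84 ± 0.51 (SE, adjusted p = 0.864 from edgeR), with libraries that overlapped. Leaving out 1 library moved it to -1.57 without Skp1aKO lot 1, -0.35 without its lot 2, -0.24 without Skp1acont lot 1 and -1.24 without its lot 2. Hist1h2bp was the only member with an unadjusted p under 0.05. Its 14 counts in Skp1aKO against 1 in Skp1acont gave 3.48 ± 1.02 (adjusted p = 0.473 from edgeR), without overlap. Hist1h4m had 9 counts against 0, at least 2.8-fold higher, but all 9 came from lot 2. Without Skp1acont lot 1 Hist1h2bp was called (adjusted p = 0.0352 from edgeR), and without Skp1acont lot 2 Hist1h2br was (adjusted p = 0.00754), each against a lone library at 0 counts. Of all genes 31.3% and 27.3% were called in those fits.

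Against wt at 9.5 dpc, 0 of 7 tested members passed in Skp1aKO, where 36.4% of all genes were called by edgeR (17.6% higher and 18.7% lower). Their median log2 fold change was -0.468 beside 0.236 over all genes. Hist1h2ap gave -0.8 ± 0.51 (adjusted p = 0.219 from edgeR), which became -1.52 without Skp1aKO lot 1 and -0.3 without its lot 2. Hist1h2bq came nearest, with 19 counts in Skp1aKO and 0 in wt at 9.5 dpc. It was at least 6.96-fold higher, or 1.88-fold without wt lot 2, and had an adjusted p of 0.0684 from edgeR. It was the only member with an unadjusted p under 0.05, and it passed with library totals (adjusted p = 0.0375), the DESeq2 Wald test (0.0377) and a block for the lot (0.0421), fits in which 43.7%, 35.9% and 39.4% of all genes were called. Its copy Hist1h2br, with 17 counts against 26, gave -0.47 ± 1.15 (adjusted p = 0.749 from edgeR).

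Skp1acont against wt at 9.5 dpc gave the only calls, 2 members lower and 0 higher of 7, where 17.1% of all genes were called lower and 19.3% higher. Hist1h4m fell from 35 counts in wt at 9.5 dpc to 0 in Skp1acont, at least 9.89-fold lower on the TMM scale (adjusted p = 0.0347 from edgeR), and the libraries did not overlap. Hist1h2bp fell from 11 counts to 1, a log2 fold change of -3.01 ± 1.06 (adjusted p = 0.0496 from edgeR). These calls rested on few reads. Neither passed with library totals or without either wt library at 9.5 dpc. With only the groups compared, neither gene had a value. Hist1h2bp also did not pass with DESeq2 size factors, the DESeq2 Wald test, no filter or the 1 CPM filter. Nor did it pass with the block for the lot, the method without robust estimates or without Skp1acont lot 2. The Hist1h2bp value was -5.51 without Skp1acont lot 1, a fit in which it passed, and -2.28 without lot 2. Hist1h2ao gave 7.13 without Skp1acont lot 1, and Hist1h2br gave -6.73 without lot 2. Each of these values rests on a single Skp1acont library, so the members that stood out depended on the lot left out. The copy of Hist1h4m showed no such gap, since Hist1h4n had 22 counts in Skp1acont and 24 in wt, a log2 fold change of -0.04 ± 1.22 (adjusted p = 0.983 from edgeR). Hist1h2ap gave 0.04 ± 0.5 (adjusted p = 0.953).

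**Figure D4:**
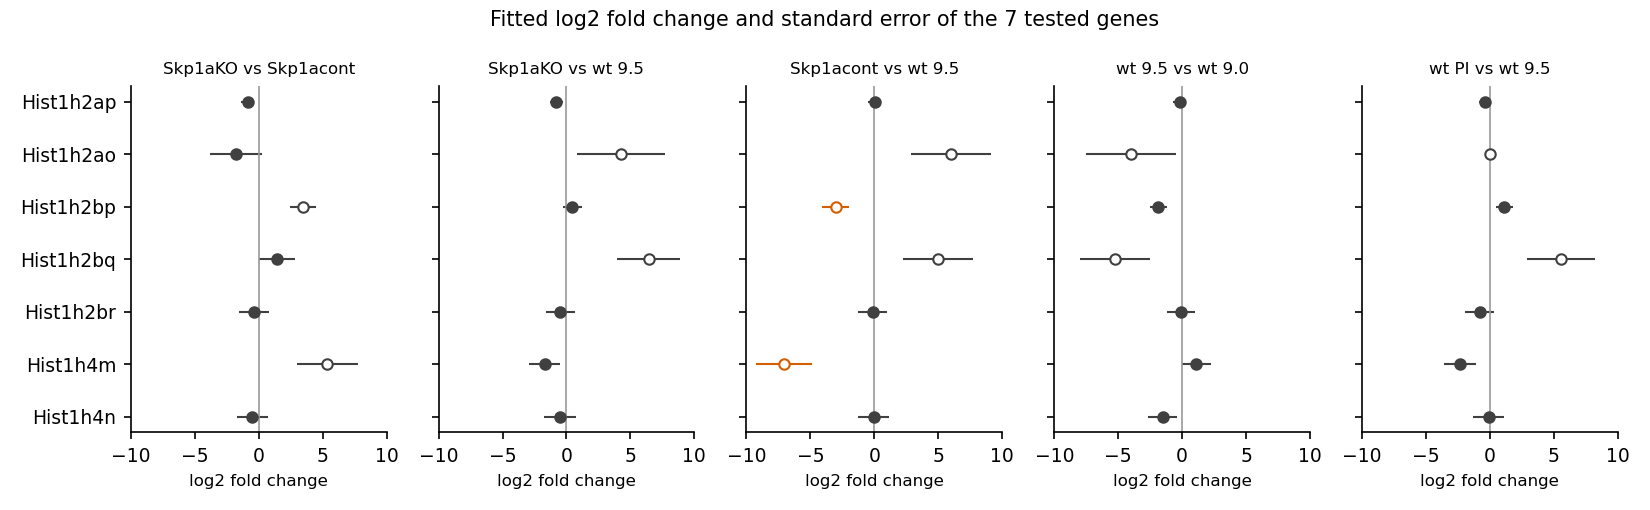
Fitted log2 fold change with its standard error for the 7 tested genes in the 5 comparisons (TMM, edgeR). Orange marks an adjusted p under 0.05, and open points mark a group with 3 counts or fewer, whose size depends on the prior count. The 2 orange points, Hist1h2bp and Hist1h4m in Skp1acont against wt at 9.5 dpc, are both open.

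Between wt embryos at 9.5 and 9.0 dpc, none of the 7 passed in the fit of all groups with edgeR or DESeq2, where 1.6% of all genes were called by edgeR (1.27% higher and 0.334% lower). Hist1h2bp was at 3.98 ± 0.243 TMM-scaled CPM at 9.0 dpc and 1.09 ± 0.0135 at 9.5 dpc (SD, n = 2 each), with no overlap, a log2 fold change of -1.85 ± 0.68 (adjusted p = 0.31 from edgeR) and the only unadjusted p under 0.05. Hist1h4n was at 6.78 ± 0.199 and 2.32 ± 0.164, also without overlap (-1.52 ± 1.13, adjusted p = 0.714 from edgeR). In the fit of the 6 wt libraries alone both were called lower at 9.5 dpc, Hist1h2bp with -1.84 ± 0.54 (adjusted p = 0.0275 from edgeR) and Hist1h4n with -1.49 ± 0.31 (adjusted p = 0.00546). A block for the lot in that fit gave adjusted p of 0.00462 and 0.0011. These fits called 31.7% and 41.7% of all genes tested in them. Without Skp1acont lot 2 the fit of all groups gave Hist1h2bp a log2 fold change of -1.88 ± 0.52. It passed there, so its call in the fit of all groups depended on 1 library outside this comparison. Hist1h2ap gave -0.19 ± 0.5 in the fit of all groups (adjusted p = 0.965), and Hist1h2br -0.07 ± 1.1. The neuron markers moved over the same stage: 6 of 7 rose, their summed level going from between 77.5 and 88.3 to between 594 and 658 TMM-scaled CPM, with Nhlh1 at 0 counts at 9.0 dpc. Of 6 surface ectoderm genes 3 fell, with sums of 230 to 238 at 9.0 dpc and 31.2 to 40.7 at 9.5 dpc. Of 8 neural progenitor genes 2 rose (316 to 348, then 1448 to 1609), as did 2 of 7 mesenchyme genes (232 to 262, then 459 to 519, with Tcf21 at 0 at 9.5 dpc) and 1 of 3 tested trophoblast genes. Their part in the histone values was not tested.

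For wt PI against wt at 9.5 dpc, 0 of 7 members passed with edgeR or DESeq2 and none had an unadjusted p under 0.05, where 0.069% of all genes were called (0.0372% higher and 0.0319% lower). Hist1h4m had 9 counts in wt PI and 35 in wt, a log2 fold change of -2.33 ± 1.23 (adjusted p = 0.664 from edgeR), with no overlap. In the fit of the wt libraries alone it was called lower with -2.23 ± 0.66 (adjusted p = 0.0314 from edgeR). A block for the lot gave Hist1h4m an adjusted p of 0.00441, and Hist1h2bp was then called higher with 1.32 ± 0.51 (adjusted p = 0.0482). These fits called 28% and 38.9% of all genes tested in them. Hist1h2ap was lower in both wt PI libraries than in both wt libraries (-0.39 ± 0.5, adjusted p = 0.9), and it was called only in the fit of these 2 groups (-0.43 ± 0.11, adjusted p = 0.0276), which called 26.7% of all genes. Hist1h2bq had 12 counts against 0, at least 3.32-fold higher, without a call. Without wt at 9.5 dpc lot 2 that bound was 0.893-fold, which no longer shows a higher level. Beside these values, no gene of the marker lists was called, while summed neuron markers were at 594 to 658 TMM-scaled CPM in wt and 232 to 236 in wt PI, and neural progenitor markers at 1448 to 1609 and 452 to 470. Their part in the histone values was not tested.

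Of the 61 histone cluster genes under newer symbols, 35 were tested, and they serve as the pathway around the 9 genes. Against wt at 9.5 dpc, 5 were called higher and 8 lower in Skp1aKO, and 5 higher and 6 lower in Skp1acont, comparisons that share the wt libraries. That is 37.1% and 31.4% of the 35, beside 36.4% of all genes in each. None was called in the other 3 comparisons. In Skp1aKO, H2ac6 (older name Hist1h2ac, an H2A gene) gave 4.56 ± 0.51, H3c4 (Hist1h3d) 3.43 ± 0.41 and H4f16 (Hist4h4) 2.86 ± 0.45 on the log2 scale, while H2bc4 (Hist1h2bc) gave -3.65 ± 0.49, H1f5 (Hist1h1b, a linker histone) -2.78 ± 0.37 and H2aw (Hist3h2a) -2.26 ± 0.47. The same genes in Skp1acont gave 4.84 ± 0.51, 2.65 ± 0.41, 2.68 ± 0.45, -1.94 ± 0.43, -1.18 ± 0.33 and, for H2aw, no call. H1f2 (Hist1h1c) and H2bc21 (Hist2h2be) were not called in any comparison, and H2bc21 came nearest between wt at 9.5 and 9.0 dpc (1.63 ± 0.38, adjusted p = 0.0714 from edgeR).

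Those counts moved with the settings. Genes called lower in Skp1aKO against wt were 3 with library totals, a fit that called 43.7% of all genes. Genes called lower in Skp1acont were 1 with library totals, where 8343 of all 18837 genes were called. In the wt libraries alone 8 were called lower and 3 higher at 9.5 dpc against 9.0 dpc. That fit called 31.7% of all genes tested in it. The counts also moved when 1 library was left out, which leaves a group with a single library.

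**Figure D5:**
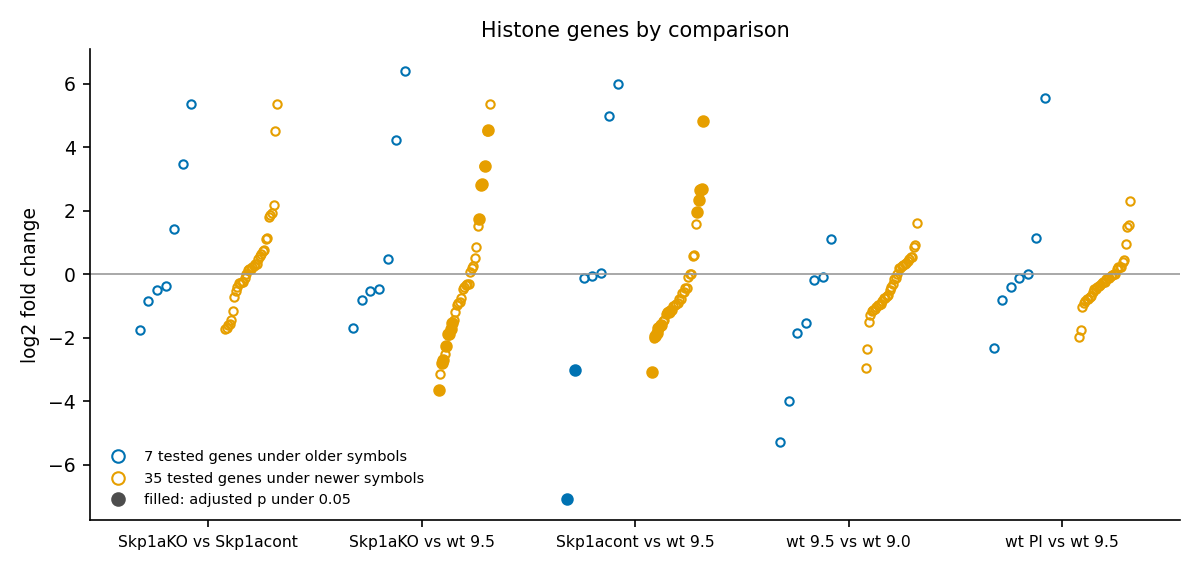
Log2 fold change of the 7 tested genes under older symbols (blue) and of 35 under newer symbols (orange) in each comparison, filled where the adjusted p was under 0.05. Filled orange points lie on both sides of 0 in the 2 comparisons of Skp1a-labelled libraries with wt, where 0 and 2 blue points are filled.

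Genes that make, process and use histone mRNA were described from fixed lists. Of 22 genes of histone mRNA transcription, 3′ end processing and decay, 2 rose and 7 fell in Skp1aKO against wt at 9.5 dpc, and 2 rose and 7 fell in Skp1acont. Both counts are 40.9% of the list, beside 36.4% of all genes. Of all genes 18.7% were called lower in Skp1aKO and 17.1% in Skp1acont. Slbp, which binds the stem-loop printed above, was at 107 and 122 TMM-scaled CPM in Skp1aKO, 200 and 103 in Skp1acont, 167 in Skp1acont PI and 477 and 519 in wt at 9.5 dpc. It fell by 2.12 ± 0.43 on the log2 scale in Skp1aKO (adjusted p = 0.0089 from edgeR) and by 1.72 ± 0.42 in Skp1acont (adjusted p = 0.0171). Slbp was not called between Skp1aKO and Skp1acont (-0.4 ± 0.41), between the wt stages (-0.19 ± 0.41) or in wt PI (0.27 ± 0.41).

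Of 22 S phase genes, 9 fell and 0 rose in Skp1aKO against wt at 9.5 dpc, and 7 fell and 1 rose in Skp1acont. Of 16 histone chaperone genes, which carry histones to DNA, 4 fell and 0 rose in each. Of 11 replication-independent histone variants, whose mRNAs are polyadenylated, 4 fell and 1 rose in Skp1aKO, and 5 fell and 0 rose in Skp1acont. As shares called, these are 40.9% and 36.4% for S phase, 25% and 25% for chaperones and 45.5% and 45.5% for variants. Of all genes 36.4% were called in each comparison. Most calls in these lists were lower, and of all genes 18.7% were called lower in Skp1aKO and 17.1% in Skp1acont. None of these 4 lists had a call between Skp1aKO and Skp1acont, between the wt stages or in wt PI.

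Markers of other cells were described in the same comparisons. Of 10 erythroid genes 7 fell and 0 rose in each Skp1a group against wt at 9.5 dpc, with summed TMM-scaled CPM of 922 to 1300 in Skp1aKO, 927 to 3290 in Skp1acont and 17710 to 23603 in wt, and none of the 10 was at 0. That is 70% of the list, beside 36.4% of all genes called in either direction and 18.7% and 17.1% called lower. Called in Skp1aKO and Skp1acont were 4 and 2 of 8 endothelial genes (50% and 25%). Neural progenitor genes gave 3 and 3 of 8 (37.5% each), and neuron genes 3 and 3 of 7 (42.9% each). Mesenchyme genes gave 4 and 5 of 7 (57.1% and 71.4%), and surface ectoderm genes 2 and 1 of 6 (33.3% and 16.7%). Of 3 tested trophoblast genes 2 and 2 were called (66.7% each). These shares lie on both sides of the 36.4% of all genes. Called neuron and surface ectoderm genes all fell, while called endothelial, mesenchyme and trophoblast genes went both ways. Called neural progenitor genes went both ways in Skp1aKO and fell in Skp1acont. The part of these markers, of the mitochondrial share and of the receptor gene background in the histone values was not tested. A list of 15 RNAs that, like histone mRNA, lack the usual tail had no member matched in the table.

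The 5 genes outside the set whose log2 CPM followed the summed level of the 9 most closely over the 11 libraries were Plcd1 (Pearson r = 0.93), Mocs3 (0.913), Ccm2 (0.897), Pgghg (0.88) and Npepl1 (0.872). These are the highest of all tested genes, picked for that, and the 11 libraries share group, lot and depth, so the values are a description with no test.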

How the data were processed

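The authors deposited raw counts of reads for each gene, not normalized. The submitters' processing notes name Trim Galore 0.6.7 and GRCm38. No aligner or counter, and no treatment of strand or of reads with several matches, is given in the sources used here. Counts were tested in R 4.3.3 with edgeR 4.0.16: 18837 genes passed filterByExpr by group, TMM set the scale, and all 6 groups entered 1 robust quasi-likelihood fit. P-values are two-sided and adjusted over all genes. The lone Skp1acont PI library is assumed to vary like the others. CPM per kb uses the exon length of GENCODE M21. Alternatives were other scalings, DESeq2 1.42.0, other filters, the lot as a block, other sets of libraries and each library left out. Deviations of same-numbered wt libraries correlated across genes with r of 0.28 to 0.306 in all 3 pairs of wt groups. Lot 1 also had the lower total in each wt group, so pairing and depth cannot be told apart in this value. No label states a pairing. The main fit had no term for the lot, which entered only in alternative fits. Members and gene lists were chosen with earlier results of these data known, and the list of newer symbols was made from RefSeq synonyms after the symbols were seen. Named genes were all 9 members, 5 fixed histone genes, Skp1a, Slbp, up to 3 genes of a list by smallest p, and the 5 genes most alike; further genes under newer symbols were chosen after their values were seen. The scripts were tested on simulated counts that had less spread than these libraries and changes only in well-counted genes. That test does not cover the sparsely counted members.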

Additional observations from a re-analysis of the deposited data

How the results depend on the processing

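The counts of called members changed under several alternatives. Against wt at 9.5 dpc, Skp1aKO had 1 member higher with library totals, with the DESeq2 Wald test and with the replicate block. These fits called 43.7%, 35.9% and 39.4% of all genes tested in them. Skp1acont had 1 lower, Hist1h4m and not Hist1h2bp, with DESeq2 size factors, the DESeq2 Wald test, no filter and the 1 CPM filter in 4 libraries. The same held with the replicate block and the method without robust estimates. With DESeq2 size factors 7438 of 18837 genes were called, and the shares in these other fits are not given here. Skp1acont had 0 lower with library totals, where 8343 of 18837 genes were called. It also had 0 with only the groups compared, where Hist1h4m and Hist1h2bp had no value. For wt at 9.5 against 9.0 dpc, 2 were lower with only the groups compared, only the wt libraries, or these with the block. The last 2 fits called 31.7% and 41.7% of all genes tested in them, and the share in the first is not given here. For wt PI, 2 were lower with only the groups compared and 1 with only the wt libraries. With the block as well, 1 was lower and 1 higher. These fits called 26.7%, 28% and 38.9% of all genes tested in them. Leaving out 1 library also moved the counts for Skp1aKO against Skp1acont, for Skp1acont against wt and between the wt stages. Such fits leave a group with a single library, and their counts are not given here. The bias-corrected quasi-likelihood method, chosen after seeing the data, called the same 2 members in Skp1acont against wt and no other. The share of all genes it called is not given here.

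Deviations of same-lot libraries correlated from -0.172 to 0.118 in the 7 pairs of groups with a Skp1a label, and the block changed no call there beyond those given.

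The summed level's log2 ratio by library totals was 0.08 for Skp1aKO and 0.72 for Skp1acont against wt, and with TMM -0.69 and 0. Without 1 library the ratio by library totals ran from -0.36 to 0.42 and from 0.34 to 1.01, and from -0.51 to 0.36 between the wt stages.

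Uncalled values that changed sign were as follows. With library totals Hist1h2br was 0.34 and Hist1h4n 0.21 in Skp1aKO against wt, and Hist1h2br 0.09 between the wt stages, as with the block (0.09). In Skp1acont against wt, Hist1h2br was 0.32, 0.71, 0.41 and 0.25, Hist1h4n 0.11, 0.63, 0.01 and 0.1, and H1f2 0.17, 0.64, 0.17 and 0.14 with DESeq2 size factors, library totals, the Wald test and the CPM filter. Hist1h2ap was -0.05 with no filter and -0.07 with the block, and H1f2 0.25 with only the groups compared. Without 1 library, the ranges were, for Skp1aKO against Skp1acont, Hist1h4n -6.57 to 6.09 and Hist1h2br -1.48 to 6.39; for Skp1aKO against wt, Hist1h4n -6.61 to 0.47 and H1f2 -0.04 to 0.57; for Skp1acont against wt, H1f2 -0.41 to 0.27, Hist1h2br -6.73 to 1.03, Hist1h4n -6.6 to 0.93 and Hist1h2ap -0.53 to 0.59; between the wt stages, Hist1h2br -0.61 to 0.96 and Hist1h2ap -0.56 to 0.33; in wt PI, Hist1h2bp -0.11 to 1.64 and Hist1h4n -0.21 to 0.06. The causes were not tested. For genes with few counts the depth limits what can be seen: a member below 0.258 to 1.29 CPM in a library could not be told from 0.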

Other observations

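A difference between lots, noticed in the data, concerns Hist1h2ap. Its CPM of the library total in lot 1 was 2.02 times that in lot 2 in Skp1aKO, 1.8 times in Skp1acont, 2.09 times in wt at 9.0 dpc, 1.09 times in wt at 9.5 dpc and 1.03 times in wt PI, and on the TMM scale the ratios ran from 1.08 to 2.33. The direction was the same in 5 of 5 groups, for which an exact two-sided sign-flip permutation test gives p = 0.0625, the smallest 5 pairs allow. The direction was noticed in these same pairs, which fixed that p-value, so it adds no support. The summed level of all members was higher in lot 1 in 4 of 5 groups by library total, with a ratio of 0.964 in wt PI. On the TMM scale it was higher in 5 of 5. Lot 1 had the lower total in each wt group and the higher total in Skp1aKO and Skp1acont. In an edgeR fit of all groups with the lot as a term, added after the data were seen, Hist1h2ap gave -0.71 ± 0.25 (SE, log2) for lot 2 against lot 1, with an adjusted p of 0.8 over 18837 genes, of which 0.165% were called. The 61 genes under newer symbols, summed, were higher in lot 1 in 1 of 5 groups by library total and in 3 of 5 on the TMM scale. The labels do not say what a lot is.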
